A study of Rattus norvegicus with 10 samples.

Results

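The genes described here encode the subunits of voltage-gated and related potassium (K+), sodium (Na+), and calcium (Ca2+) channels and of the ionotropic glutamate receptors. They were taken by symbol: every gene that the array annotation names with a symbol starting with Kcn, Scn plus a digit, Cacn, Gria, Grik, or Grin plus a digit, except Gria2 and Scn3b, and for each gene the probe set with the highest mean log2 intensity. This gave 125 members of 14217 genes with a single symbol, and the members have 200 probe sets among the 31042 tested. The Kcn symbols also cover channels that are not gated by voltage, so the members comprise 31 voltage-gated K+ alpha subunits, 15 inward rectifiers, 11 2-pore K+ channels, 5 Ca2+- or Na+-activated K+ channels, 13 K+ accessory subunits, 9 Na+ alpha and 2 Na+ beta subunits, 10 Ca2+ alpha1, 2 alpha2delta, 4 beta, and 8 gamma subunits, and 3 AMPA, 5 kainate, and 7 NMDA receptor subunits.

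Lens explants from rats aged 3 days were compared after 2, 4, 12, and 24 hr at 100 ng/mL FGF2, a growth factor that drives lens epithelial cells toward fiber cells, with explants taken at 0 hr, after a night at 5 ng/mL FGF2. Each time point had 2 arrays from separate cultures, and 2 and 4 hr are called the early and 12 and 24 hr the late phase. No explants were kept at the low dose for the same hours, so that dose and hours in culture cannot be told apart, and all 4 comparisons with 0 hr share the same 2 arrays.

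K+ channels hold the membrane potential of a cell near rest and end its electrical signals, Na+ channels start action potentials, and Ca2+ channels let in the Ca2+ that triggers contraction, secretion, and gene transcription. Pore-forming subunits assemble with accessory subunits that set their gating and their number at the surface. Glutamate receptors of the AMPA, kainate, and NMDA types are cation channels opened by the transmitter glutamate and are best known from excitatory synapses. The lens has no nerves or vessels of its own, and K+ conductance sets much of the membrane potential of its epithelium.

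The promoter regions of 3 members are shown because they belong to the members with the largest rise at 2 hr (Kcnk5), the largest rise at 4 hr (Kcnd3), and the largest fall at 24 hr (Kcnab1). They are the 250 bases before the RefSeq start site in the GRCr8 build, all on the plus strand, at chr15:4171375-4171624 for Kcnk5, chr2:195626066-195626315 for Kcnd3, and chr2:151614301-151614550 for Kcnab1. Capitals mark the GC box (GGGCGG on either strand), a pattern bound by Sp and Klf proteins.
Kcnk5: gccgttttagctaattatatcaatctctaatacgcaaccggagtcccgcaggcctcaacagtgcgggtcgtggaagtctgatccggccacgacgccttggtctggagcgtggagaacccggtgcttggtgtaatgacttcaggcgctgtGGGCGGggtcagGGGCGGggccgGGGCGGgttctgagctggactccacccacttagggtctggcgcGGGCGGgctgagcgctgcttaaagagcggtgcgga
Kcnd3: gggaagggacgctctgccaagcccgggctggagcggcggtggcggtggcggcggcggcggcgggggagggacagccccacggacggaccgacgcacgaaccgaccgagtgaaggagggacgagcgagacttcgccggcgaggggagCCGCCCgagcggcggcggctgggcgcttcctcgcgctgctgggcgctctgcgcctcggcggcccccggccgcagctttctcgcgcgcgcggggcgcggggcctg
Kcnab1: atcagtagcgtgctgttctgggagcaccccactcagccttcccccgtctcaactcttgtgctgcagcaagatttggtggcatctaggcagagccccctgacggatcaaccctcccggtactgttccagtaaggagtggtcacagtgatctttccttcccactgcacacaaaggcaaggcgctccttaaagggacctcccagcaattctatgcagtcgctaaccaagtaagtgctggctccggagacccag
Kcnk5 had 4 GC boxes, Kcnd3 had 1, and Kcnab1 had none, where 30.5% of 33469 promoter regions of that length hold at least 1. None of the 3 regions held an AP-1 site (TGACTCA), a cAMP response element (TGACGTCA), or an E-box (CACGTG), searched on both strands, none of these motifs containing another. These motifs were present in 4.05, 1.59, and 5.59% of all regions. The table held 97 regions for 88 members, of which 48 had a GC box, 1 an AP-1 site, and 2 an E-box. A match or its absence in such a window does not show a site in use.

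Most members were dim and were not called at any time. Of the 125, 102 (81.6%) had a mean below the median of all probe sets, with a median log2 intensity of 5.405 over members against 6.647 over all probe sets. By limma with Benjamini-Hochberg adjustment over all probe sets (adjusted p under 0.05), 29 members were called at 1 or more of the 4 times and 96 at none, which is 23.2% of members against 40.8% of all probe sets. Of the 29, 12 only rose, 15 only fell, and Grik5 and Kcns3 did both. Of the 96, 93 stayed within 0.5 log2 units of 0 hr at every time, and the other 3, Scn2b, Kcnma1, and Kcnj8, had larger differences that did not pass the test. In bulk RNA of this kind, fewer cells of a type and less RNA per cell cannot be told apart.

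**Figure D1:**
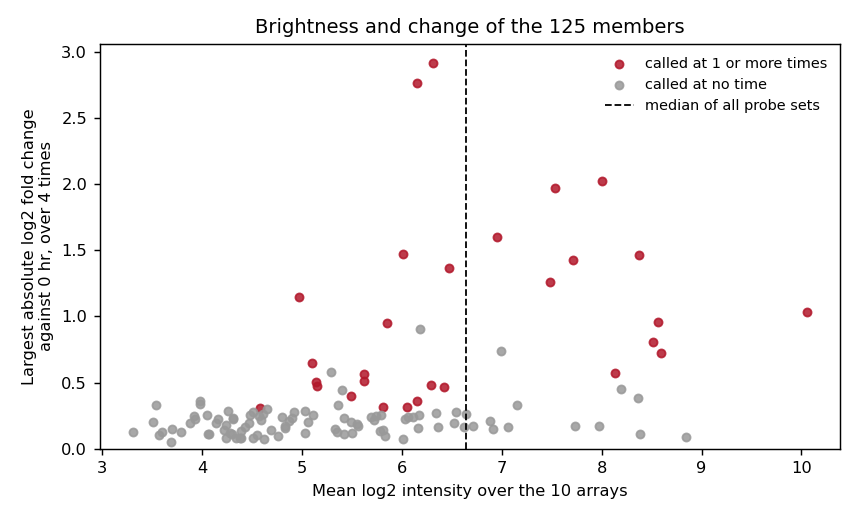
Each point is 1 of the 125 members, placed by its mean log2 intensity over the 10 arrays (x axis) and its largest absolute log2 fold change against 0 hr over the 4 times (y axis), with the 29 called members in red, the 96 others in grey, and the median of all probe sets as a dashed line. Most members lie left of the line and below 0.5, and the called ones reach 2.92.

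The share of members called was below that of all probe sets at every time and in both directions. At 2 hr 7 members rose and 6 fell (5.6 and 4.8%, against 8.61 and 8.88% of all probe sets). At 4 hr 10 rose and 9 fell (8 and 7.2%, against 11.9 and 11.9%). At 12 hr 3 rose and 9 fell (2.4 and 7.2%, against 8.94 and 10%). At 24 hr 3 rose and 6 fell (2.4 and 4.8%, against 9.29 and 10.9%). The median log2 fold change of the members lay between −0.04 and 0.07 at the 4 times, close to that of all probe sets (−0.02 to 0.03). Of the 23 members at or above the median brightness 5, 7, 6, and 6 were called at 2, 4, 12, and 24 hr (21.7, 30.4, 26.1, and 26.1%), more often than all probe sets together (17.5, 23.8, 19, and 20.2%) and less often than the probe sets at or above the median (26.2, 35.5, 29.8, and 30.9%). Of the 102 dimmer members 8, 12, 6, and 3 were called (7.84, 11.8, 5.88, and 2.94%, against 8.77, 12.1, 8.12, and 9.45% of the dimmer probe sets).

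**Figure D2:**
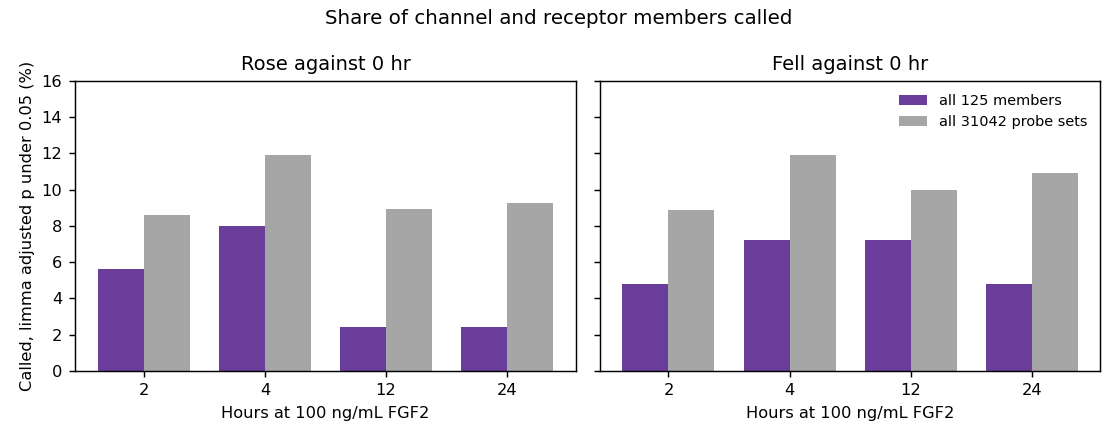
Bars give the percentage of the 125 members (purple) and of all 31042 probe sets (grey) that rose (left) or fell (right) against 0 hr at 2, 4, 12, and 24 hr, by limma at an adjusted p under 0.05. The purple bar is the shorter of each pair, and the gap is widest for rises at 12 and 24 hr.

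Of 8 lens epithelium markers 6 had means above the median of all probe sets, among them Pax6 between 6999 and 9866 and the epithelial cadherin Cdh1 between 6003 and 11670 on the 10 arrays, and Otx2 (36.89 to 51.44) and Six3 (73.65 to 160.2) were below it. The 9 measured lens fiber markers had means above it, and 1, 4, 5, and 1 of them fell and none rose at 2, 4, 12, and 24 hr. Of 7 neuronal markers 5 were below the median, among them Syt1 at 13.05 to 16.85 and Stmn2 at 19.36 to 30.75. At 2, 4, 12, and 24 hr 0, 1, 1, and 2 of the 7 rose and 1, 0, 2, and 2 fell, with Elavl4 at 169.4 and 136.9 at 24 hr against 48.17 and 36.9 at 0 hr. Their summed intensity, carried by Map2, was 2190 to 3864 early and 1373 to 1712 late against 2799 to 2970 at 0 hr. The 5 measured glial markers, 3 of them below the median, summed to 550.4 to 837.2 early and 360.2 to 570 late against 751.3 to 779.1 at 0 hr. The 4 measured vascular markers summed to 1149 to 1718 early and 798.1 to 1025 late against 1204 to 1525 at 0 hr. At 2, 4, 12, and 24 hr 0, 0, 1, and 0 of the 4 rose and 1, 2, 2, and 2 fell. Tek was at 285.1 to 335.4 late against 806.2 and 1053 at 0 hr. Kdr went the other way, with 411.8 to 640.1 late against 228 and 294.7 at 0 hr. The 5 fibroblast markers, carried by Col1a2, summed to 1374 to 2608 early and 1269 to 1859 late against 1331 to 1445 at 0 hr, and 5 blood and immune markers, carried by Hbb, to 2102 to 3831 early and 1481 to 1701 late against 2238 to 2300. The 5 muscle markers, 4 of them below the median, summed to 5091 to 7992 early and 536.7 to 820 late against 1463 to 1626 at 0 hr. This sum was carried by Des and was thus high early and low late, as was Kcns3. At 2, 4, 12, and 24 hr 2, 2, 0, and 0 of the 5 rose and 0, 0, 1, and 2 fell. Myh3 (20.29 to 27.03), Ckm (20.24 to 25.66), and Myog (29.32 to 42.66) were dim on all 10 arrays and did not share this pattern. The 5 photoreceptor markers (138.9 to 151.1) and the 6 pigment cell markers (186.8 to 205.4) were all below the median. The part of these cell types in the changes of the members was not tested.

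The log2 ratio of the 5′ to the 3′ Gapdh controls, a sign of RNA quality, was −0.17 to −0.30 on the early arrays and −0.14 to 0.00 on the others. That of Actb did not follow the phase, with −2.13 to −1.37 on the early and −1.88 to −1.30 on the late arrays against −1.12 and −1.21 at 0 hr. The SD of the log2 difference between replicates over members was 0.15 at 0 hr, 0.304 and 0.234 at 2 and 4 hr, and 0.172 and 0.216 at 12 and 24 hr. Their part in the changes of the members was not tested.

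Of the 62 pore-forming K+ channels 12 (19.4%) were called at 1 or more times, against 40.8% of all probe sets. Their called changes ranged in size from 0.32 log2 units in Kcnj4 and Kcnj13 to 2.76 in Kcnd3, and that of Kcnk5 at 12 hr was the only rise called late. The 2-pore channel Kcnk5 (TASK-2), a background channel that opens in alkaline medium, had intensities of 117.9 and 141.9 at 0 hr, 555.6 and 499.4 at 2 hr, 427.4 and 492.4 at 4 hr, 236.4 and 234.4 at 12 hr, and 144.4 and 159.7 at 24 hr. Both arrays at 2, 4, 12, and 24 hr lay above both 0 hr arrays, and the excess shrank with time. Its log2 fold changes were 2.03 ± 0.12 (SE) at 2 hr, 1.83 ± 0.12 at 4 hr, and 0.86 ± 0.12 at 12 hr (adjusted p 6.06e-05, 3.93e-05, and 0.00162), and 0.23 ± 0.12 at 24 hr, which did not pass (adjusted p 0.239). Kcnk1 (TWIK-1), the other 2-pore channel called, fell by 0.40 at 2 hr (adjusted p 0.0157), with 34 and 37.82 at 2 hr against 47.38 and 47.15 at 0 hr, a call lost without either 0 hr array or the first 2 hr array (adjusted p up to 0.0993). The remaining 9 were not called at any time, among them Kcnk2 (TREK-1), the brightest of the class, with log2 fold changes between −0.08 and 0.11.

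Kcnd3 (Kv4.3), a pore subunit of the fast-inactivating A-type current, changed at a single time. Its intensities were 48.19 and 48.30 at 0 hr, 41.98 and 51.06 at 2 hr, 335.7 and 319.6 at 4 hr, 49.75 and 46.68 at 12 hr, and 50.40 and 51.68 at 24 hr. The 4 hr arrays stood apart from the other 8, which all lay between 41.98 and 51.68. The log2 fold change was 2.76 ± 0.11 at 4 hr (adjusted p 8.97e-06) and lay between −0.06 and 0.08 at the other times (adjusted p 0.67 or above). Of its other probe sets 1 also rose at 4 hr (1.74 ± 0.29, adjusted p 0.00301), whereas the third did not (0.00 ± 0.12, adjusted p 0.998). Kcnd1 (Kv4.1), of the same subfamily, rose by 0.57 ± 0.12 at 4 hr (adjusted p 0.00939), with 413 and 322.2 at 4 hr against 235.8 and 254.9 at 0 hr, and was not called without the first 0 hr array (adjusted p 0.0753).

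Kcns3 (Kv9.3), a silent subunit that forms no channel alone and modifies Kv2 channels, was high early and low late. Its intensities were 157.8 and 123.4 at 0 hr, 364.4 and 510 at 2 hr, 444.9 and 673.9 at 4 hr, 94.44 and 121.1 at 12 hr, and 66.36 and 57.28 at 24 hr. The early arrays all lay above and the late arrays all below the 0 hr arrays. It rose by 1.63 ± 0.24 at 2 hr and 1.97 ± 0.24 at 4 hr (adjusted p 0.00275 and 0.000647), and fell by 1.18 at 24 hr (SE 0.24, adjusted p 0.00898). The fall was not called without the first 0 hr array or the second 24 hr array (adjusted p up to 0.0762).

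The Shaker-type subunits Kcna1 (Kv1.1) and Kcna2 (Kv1.2), which can join in the same tetramers, went opposite ways. Kcna1 had 38.4 and 41.79 at 0 hr, 74.48 and 74.78 at 2 hr, 63.23 and 94.39 at 4 hr, 51.99 and 58.06 at 12 hr, and 48.89 and 51.81 at 24 hr. It rose by 0.90 ± 0.17 at 2 hr and 0.95 ± 0.17 at 4 hr (adjusted p 0.00783 and 0.00392), and the later differences did not pass. The 2 hr rise of Kcna1 was not called without the first 0 hr array (adjusted p 0.0654). Kcna2 had 241.4 and 302.8 at 0 hr, 64.94 and 122.4 at 2 hr, 95.82 and 127.7 at 4 hr, 99.14 and 125.6 at 12 hr, and 121.4 and 77.68 at 24 hr. All 8 arrays at 100 ng/mL FGF2 lay below both 0 hr arrays, and Kcna2 fell, with log2 fold changes of −1.60, −1.29, −1.28, and −1.48 at 2, 4, 12, and 24 hr (SE 0.32 each, adjusted p 0.0102 to 0.0228). The second, dimmer Kcna2 probe set was not called (−0.07 ± 0.13 at 4 hr, 0.12 ± 0.13 at 24 hr), and each of the 4 calls was lost without the second 0 hr array (at 2 hr the log2 fold change is then −1.44, adjusted p 0.0766). Those at 4, 12, and 24 hr were also lost in 1 to 3 other omissions.

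Kcnh1 (Kv10.1, Eag1), whose probe set was the brightest among members, dipped at 4 hr. It had 1350 and 1317 at 0 hr, 1548 and 1158 at 2 hr, 756.8 and 560.7 at 4 hr, 1052 and 1107 at 12 hr, and 1033 and 1133 at 24 hr. Both 4 hr arrays lay below all 8 others, with a log2 fold change of −1.03 ± 0.17 (adjusted p 0.00264). The other 25 voltage-gated alpha subunits were not called at any time.

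Inward rectifiers pass K+ more easily into the cell and stabilize the resting potential. Of the 15, 4 were called at 1 or more times (26.7%, against 23.2% of all members and 40.8% of all probe sets). Kcnj12 (Kir2.2) had 420.1 and 397.7 at 0 hr, 536.1 and 528.2 at 2 hr, 373.1 and 481.1 at 4 hr, 236.8 and 229.5 at 12 hr, and 267.6 and 335.8 at 24 hr, and it fell by 0.81 at 12 hr (SE 0.14, adjusted p 0.00469). Kcnj4 (Kir2.3) rose by 0.32 at 2 hr and Kcnj13 (Kir7.1) by 0.32 at 4 hr, and Kcnj3 (Kir3.1), which forms channels opened by G proteins, fell by 0.36 at 12 hr (adjusted p 0.0358, 0.04, and 0.0333). These 3 calls were lost in 8, 8, and 3 of the 10 omissions. The other 11 of 15 were not called, including Kcnj14, the brightest, at 444.6 to 494.8 at 24 hr against 452.1 to 462.4 at 0 hr. None of the 5 Ca2+- or Na+-activated channels was called. The brightest of them, Kcnma1, the pore of the large-conductance BK channel, had 285 and 122.6 at 24 hr against 99.83 and 125.6 at 0 hr, so that its 24 hr arrays disagreed (log2 fold change 0.74 ± 0.37, adjusted p 0.212).

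**Figure D3:**
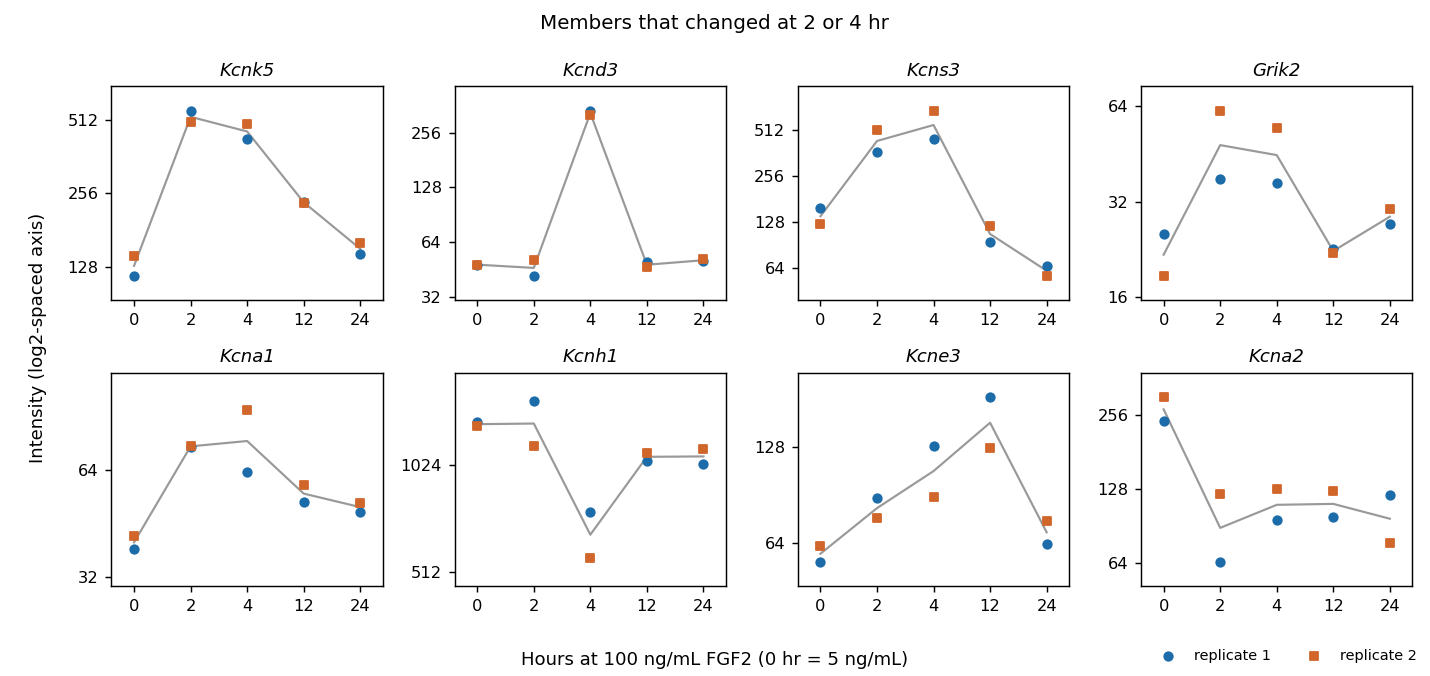
Intensity (log2-spaced y axis) of 8 members on each array at 0, 2, 4, 12, and 24 hr (x axis), with replicate 1 as blue circles, replicate 2 as orange squares, and the grey line through the geometric mean of each pair. Kcnd3 stands out at 4 hr alone (335.7 and 319.6), Kcnk5 and Kcns3 are highest at 2 or 4 hr, and Kcna2 is highest at 0 hr.

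The accessory K+ subunits were the class with the most members called, 9 of 13 (69.2%) against 23.2% of all members and 40.8% of all probe sets. At 4 hr 1 of the 13 rose and 5 fell (7.69 and 38.5%, against 11.9 and 11.9% of all probe sets), and at 12 hr 1 rose and 4 fell (7.69 and 30.8%, against 8.94 and 10%). Kcnab1 (Kv beta 1), a cytoplasmic subunit that speeds the inactivation of Kcna channels, had 161.1 and 186.1 at 0 hr, 195.1 and 244 at 2 hr, 118.6 and 144.9 at 4 hr, 27.96 and 28.03 at 12 hr, and 28.64 and 18.36 at 24 hr. The 4 late arrays lay far below the other 6. The fall was 2.63 at 12 hr and 2.92 at 24 hr (SE 0.21 each, adjusted p 0.000116 and 6.63e-05), the largest among members at those times. The second Kcnab1 probe set, itself dimmer, did not follow (−0.09 ± 0.13 at 24 hr, adjusted p 0.698).

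Kcnmb4, the neuronal-type beta subunit of the BK channel, fell with time. It had 344.6 and 356.1 at 0 hr, 283.7 and 272.9 at 2 hr, 235.6 and 237.7 at 4 hr, 133 and 135.3 at 12 hr, and 142.7 and 119.2 at 24 hr. Each pair from 2 to 12 hr lay below the pair before it, and the 12 and 24 hr pairs overlapped. Its log2 fold changes were −0.33, −0.57, −1.39, and −1.43 (SE 0.10 each), of which the first did not pass (adjusted p 0.0518, then 0.00399, 8.17e-05, and 6.27e-05).

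The Kcne genes encode single-span subunits that join many K+ channels. Kcne4, which inhibits Kcnq1 and some Kcna channels, had 125.4 and 107.9 at 0 hr, 82 and 60.44 at 2 hr, 59.34 and 50.01 at 4 hr, 64.92 and 55.24 at 12 hr, and 40.63 and 43.36 at 24 hr. It fell at all 4 times, with log2 fold changes of −0.72, −1.09, −0.96, and −1.47 (SE 0.16 each, adjusted p 0.0176 to 0.000517), and it and Kcna2 were the 2 members called at all 4. Kcne3, which holds Kcnq1 channels open, had 55.87 and 62.76 at 0 hr, 88.66 and 76.44 at 2 hr, 129.4 and 89.51 at 4 hr, 183.6 and 127 at 12 hr, and 63.7 and 75.04 at 24 hr. It rose by 0.86 at 4 hr and 1.37 at 12 hr (SE 0.21, adjusted p 0.0192 and 0.00271) and its 24 hr arrays were close to 0 hr (0.22, adjusted p 0.543). Kcne2 fell by 0.49 at 4 hr and 0.51 at 12 hr (adjusted p 0.0404 and 0.0403), calls that were lost in 7 and 6 of the 10 omissions of an array, and its 4 hr log2 fold change was −0.28 without the first 4 hr array. The calls of Kcne4 at 2 hr and of Kcne3 at 4 hr were lost without either 0 hr array, and also without the second 2 hr array for Kcne4 and the first 4 hr array for Kcne3 (adjusted p up to 0.129 and 0.118).

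Kcnip1 (KChIP1), a Ca2+-binding subunit of the Kv4 channels of which Kcnd3 is a pore, rose at 24 hr alone. It had 304.1 and 249.8 at 0 hr, 381.6 and 192.9 at 2 hr, 325.1 and 226.9 at 4 hr, 308.9 and 225.2 at 12 hr, and 757.6 and 764.6 at 24 hr. The 24 hr arrays lay above all others. Only 2 of the 3 Kcnip1 probe sets were called at 24 hr, and the mean over all 3 rose by 0.87 (adjusted p 0.00596). The rise of the probe set shown was 1.47 ± 0.31 (adjusted p 0.0102), with a second probe set at 1.14 ± 0.19 (adjusted p 0.00339). The call of the first was lost without the second 0 hr array or the second 24 hr array (adjusted p up to 0.0764), where the log2 fold change stayed between 1.32 and 1.61. Kcnip2 (KChIP2), of the same family, fell by 0.57 at 2 hr and 0.48 at 4 hr (adjusted p 0.0209 and 0.0311), and Kcnab2 fell by 0.47 and 0.43 at those times (adjusted p 0.0272 and 0.0284). For both genes the calls did not hold in the mean over all their probe sets, with adjusted p 0.481 and 0.419 for Kcnip2 and 0.148 and 0.0755 for Kcnab2. Kcnab3 had 51.36 and 35.11 at 2 hr against 26.06 and 28.3 at 0 hr, a rise of 0.64 ± 0.18 (adjusted p 0.0371) that was lost in 7 of the 10 omissions, with a log2 fold change of 0.37 without the first 2 hr array. Each call of Kcnip2 and Kcnab2 was also lost without either 0 hr array and without at least 1 array of the time compared (adjusted p up to 0.188), and the Kcnip2 fall at 2 hr was then as small as −0.37, without the first 2 hr array.

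Of the 24 Ca2+ channel members 5 (20.8%) were called at 1 or more times, against 40.8% of all probe sets. Among them Cacna2d1, the alpha2delta subunit that carries pore subunits to the surface and binds gabapentin, rose from 4 hr on. It had 257.1 and 291.1 at 0 hr, 333.2 and 210.4 at 2 hr, 462.3 and 440.4 at 4 hr, 532.1 and 529.2 at 12 hr, and 426.1 and 478.6 at 24 hr. All arrays at 4, 12, and 24 hr lay above both 0 hr arrays, by 0.72, 0.96, and 0.72 log2 units (SE 0.19 each, adjusted p 0.0229, 0.00776, and 0.0256). Each of these calls was lost in 3 or 4 of the 10 omissions, always of a 0 hr array or of an array of the time compared, with log2 fold changes of 0.63 to 1.05.

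Cacna1c (Cav1.2), the L-type pore of heart and smooth muscle, had 197.4 and 320.3 at 0 hr, 98.05 and 112.2 at 2 hr, 200 and 181.7 at 4 hr, 157.8 and 152.8 at 12 hr, and 253.6 and 223.9 at 24 hr. It fell by 1.26 at 2 hr (SE 0.20, adjusted p 0.00363) and by 0.70 at 12 hr (adjusted p 0.0395), and its 0 hr arrays were far apart. The second Cacna1c probe set was not called at either time. In the mean over the Cacna1c probe sets the log2 fold change was −0.82 at 2 hr (adjusted p 0.0138). At 12 hr it was −0.43 and did not pass (adjusted p 0.131). The 12 hr call was lost in 5 of the 10 omissions, and the log2 fold change was −0.35 without the second 0 hr array. Cacna1d (Cav1.3), also L-type, fell by 0.48 at 12 hr (adjusted p 0.0394), a call lost in 4 of the 10 omissions. Cacna1b (Cav2.2), the N-type pore of nerve endings, had 60.31 and 61.12 at 4 hr and 56.71 and 57.58 at 24 hr against 38.49 and 47.24 at 0 hr, with rises of 0.51 and 0.42 (adjusted p 0.0188 and 0.0455). The 24 hr rise of Cacna1b was lost in 7 of the 10 omissions and was 0.27 without the first 0 hr array, and the 4 hr rise was lost without that array or either 4 hr array (adjusted p up to 0.146). Cacng8, a gamma subunit that serves AMPA receptors, fell by 0.31 at 4 hr at a low intensity (21.92 and 21.29 against 27.74 and 25.76 at 0 hr, adjusted p 0.0245), also lost in 4. The 4 beta subunits were not called. The brightest Ca2+ members of their classes, the T-type pore Cacna1h, Cacnb1, and Cacng2 (stargazin), were not called at any of the 4 times either, with Cacna1h at 263.5 and 258.3 at 12 hr against 346.2 and 334.6 at 0 hr (log2 fold change −0.38 ± 0.12, adjusted p 0.0624).

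Of the 15 glutamate receptor members 3 were called at 1 or more times (20%, against 40.8% of all probe sets). Grik2 (GluK2), a kainate receptor subunit, had 25.36 and 18.71 at 0 hr, 37.67 and 61.61 at 2 hr, 36.73 and 54.68 at 4 hr, 22.7 and 22.06 at 12 hr, and 27.15 and 30.29 at 24 hr. Its early arrays lay above all 0 hr and late arrays, at a low intensity, with rises of 1.15 and 1.04 (SE 0.26, adjusted p 0.0173 and 0.019). Both calls were lost without the second 0 hr array, and each also without the second array of its own time (adjusted p up to 0.134). Grik5 (GluK5), a high-affinity kainate subunit that needs a partner such as Grik2 to form a channel, had 406.7 and 433.6 at 0 hr, 536.2 and 577.3 at 2 hr, 376.2 and 440 at 4 hr, 346.5 and 378.7 at 12 hr, and 272.4 and 237.4 at 24 hr. It rose by 0.41 ± 0.11 at 2 hr (adjusted p 0.0407) and fell by 0.72 at 24 hr (SE 0.11, adjusted p 0.00278). The rise was lost in 6 of the 10 omissions (adjusted p up to 0.213) and the fall in none.

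Grin1, the subunit that all NMDA receptors share, had 59.65 and 58.82 at 4 hr against 88.64 and 77.47 at 0 hr, a fall of 0.48 (SE 0.13, adjusted p 0.0285). This call was lost without either 0 hr or either 4 hr array and in the mean over the Grin1 probe sets (log2 fold change −0.33, adjusted p 0.0839). The other 6 NMDA members were not called, Grin2a included (−0.01 to 0.28). None of the 3 AMPA members was called. Gria4, the brightest of them, was at 31.77 to 34.41 on the late and 32.25 to 35.07 on the early arrays against 30.87 and 31.34 at 0 hr, and the 3 differed from 0 hr by −0.23 to 0.22. Likewise none of the 9 Na+ alpha subunits passed the test at any time (0%, against 40.8% of all probe sets), with log2 fold changes of −0.18 to 0.28. Scn10a, the brightest, was at 107.8 to 147.2 at 100 ng/mL FGF2 against 121.3 and 126.9 at 0 hr. The other Na+ alpha subunits had means below the median of all probe sets. Scn2b, a Na+ beta subunit, was at 35.02 and 63.38 at 12 hr and 64.75 and 45.45 at 24 hr against 92.12 and 84.09 at 0 hr, where the late arrays lay below but scattered (−0.90 ± 0.30 at 12 hr, adjusted p 0.0741).

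**Figure D4:**
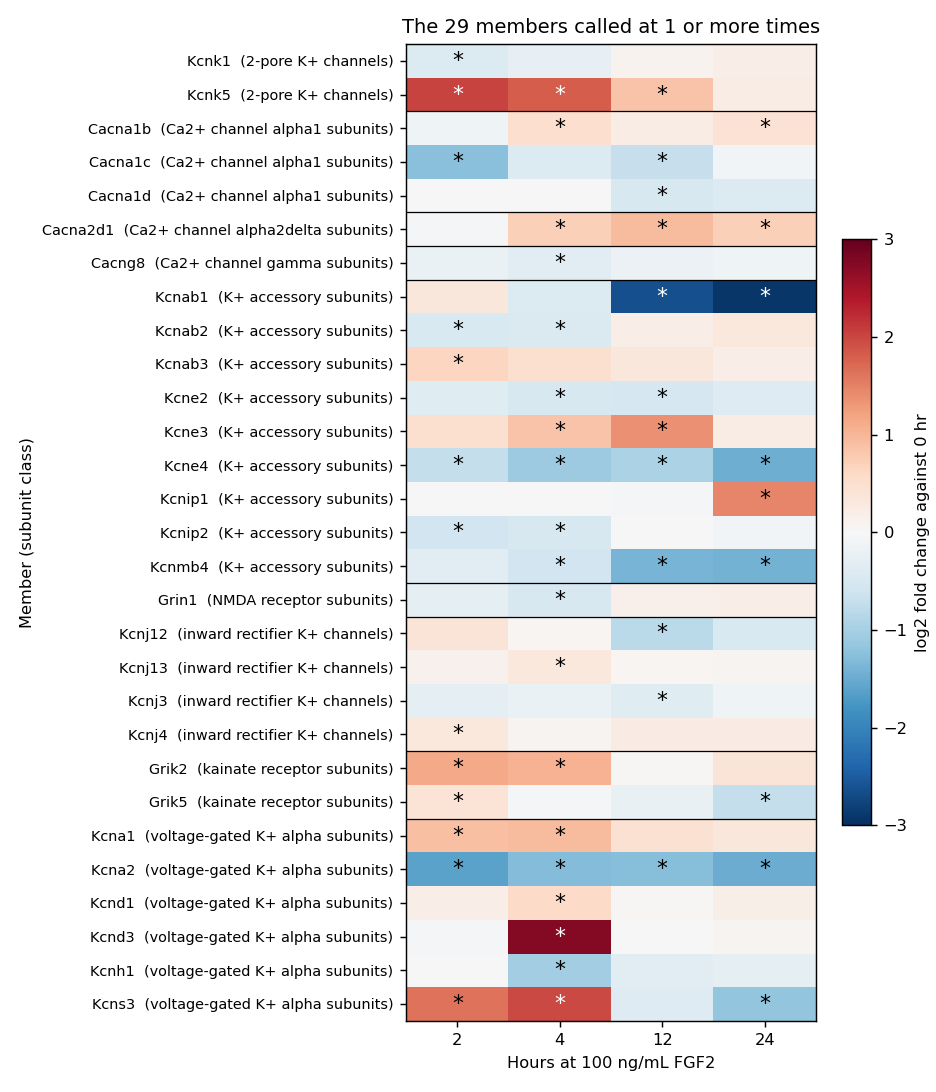
Colours give the log2 fold change against 0 hr at 2, 4, 12, and 24 hr (columns) for the 29 members called at 1 or more times (rows, by subunit class), and asterisks mark limma adjusted p under 0.05. Each class with several called members holds both red and blue, Kcna2 and Kcne4 are blue with an asterisk at all 4 times, and Kcnd3 is dark red at 4 hr alone.

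Steps within a phase were tested without 0 hr in the difference, though the estimate of the spread was shared by all arrays. At 4 hr against 2 hr, 2 members rose and 1 fell, where 2.24 and 1.5% of all probe sets did. Kcnd3 rose by 2.82 ± 0.11 (adjusted p 1.87e-05), Cacna1b by 0.63 ± 0.13 (adjusted p 0.0318), and Kcnh1 fell by 1.04 (SE 0.17, adjusted p 0.0126). At 24 hr against 12 hr 1 member rose and 3 fell, where 2.22 and 2.12% of all probe sets did. Kcnip1 rose by 1.53 ± 0.31, Kcne3 fell by 1.14, Kcnk5 by 0.63, and Grik5 by 0.51 (adjusted p 0.0283, 0.0227, 0.0249, and 0.0435), and none of these 4 calls held when a 12 or 24 hr array was left out.

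The late phase was then set against the early phase, a difference that uses no 0 hr array, though the estimate of the spread does. Of the members 18 were higher and 14 lower late (14.4 and 11.2%, against 19.9 and 19.3% of all probe sets). The largest differences were lower late, Kcnab1 at −2.74 ± 0.15, Kcns3 at −2.58 ± 0.17, Kcnk5 at −1.38 ± 0.09, and Kcnd3 at −1.31 ± 0.07, the last through its 4 hr arrays alone. Those higher late were smaller, with Kcnip1 at 0.72 ± 0.22, Kcnab2 at 0.70 ± 0.08, Grin1 at 0.54 ± 0.09, and Cacna2d1 at 0.50 ± 0.13 (adjusted p 0.027, 0.000252, 0.00181, and 0.0154). Kcnmb4 (−0.96), Scn2b (−0.90), Grik2 (−0.88), Kcnj12 (−0.85), Grik5 (−0.65), and Cacna1h (−0.50) were lower late as well. The Kcnip1 difference rests on the 24 hr arrays, since its 12 hr arrays overlapped the early ones.

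**Figure D5:**
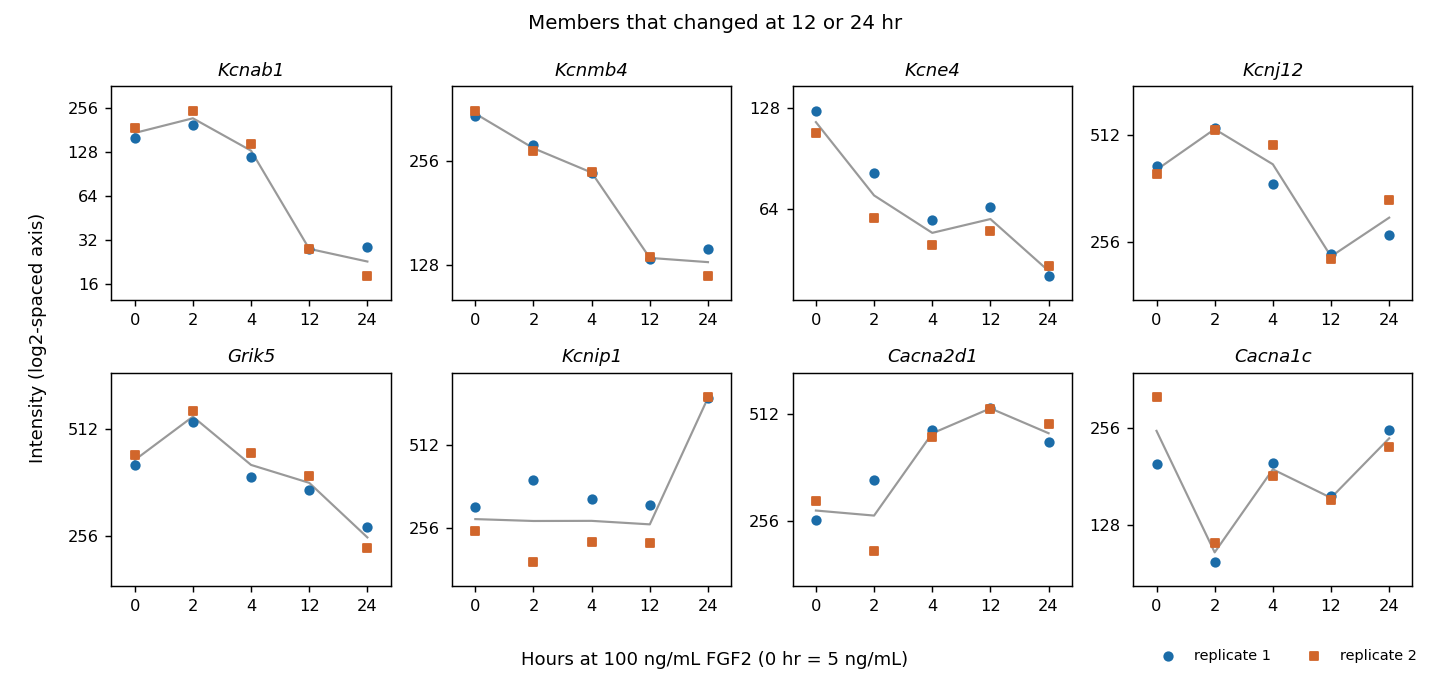
Intensity (log2-spaced y axis) of 8 members on each array at 0, 2, 4, 12, and 24 hr (x axis), with replicate 1 as blue circles, replicate 2 as orange squares, and the grey line through the geometric mean of each pair. Kcnab1 falls to 18.36 to 28.64 on the late arrays, Kcnip1 is high at 24 hr alone (757.6 and 764.6), and the 0 hr arrays of Cacna1c lie apart.

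Several genes outside the rule that act with these channels were read from lists on the same arrays, where 8.61, 11.9, 8.94, and 9.29% of all probe sets rose and 8.88, 11.9, 10, and 10.9% fell at 2, 4, 12, and 24 hr. The lists were chosen with earlier results of these data known, so their shares describe the listed genes and do not test them against all probe sets. Among 26 measured scaffolds and auxiliary proteins of glutamate receptors 6, 7, 7, and 6 rose and 2, 1, 2, and 3 fell at 2, 4, 12, and 24 hr (23.1, 26.9, 26.9, and 23.1% rose and 7.69, 3.85, 7.69, and 11.5% fell). The largest early rise was that of Nptx1, a secreted pentraxin that clusters AMPA receptors (5.47 and 5.46 at 2 and 4 hr), followed at 2 hr by Arc (4.29), which drives AMPA receptor endocytosis. The largest late rises were those of Nptxr, the pentraxin receptor (3.08 at 12 hr), and of Neto2 (2.49 at 24 hr), an auxiliary subunit of kainate receptors. The largest falls were that of Shank2 at 4 hr (−0.51) and that of Grip1 at 24 hr (−0.85), both scaffold proteins. The list of metabotropic and delta receptors had 1 rise and no fall at 2 hr, 1 of each at 4 hr, and no call late, with Grm4 at 0.77 at 2 hr and Grm8 at −0.57 at 4 hr among 8 measured.

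For glutamate uptake and synthesis, 0, 1, 1, and 0 of 8 rose and 2, 3, 2, and 2 fell (0, 12.5, 12.5, and 0% rose and 25, 37.5, 25, and 25% fell). The transporter Slc1a1 fell at all 4 times, with log2 fold changes of −1.55 at 4 hr and −1.75 at 12 hr, whereas Slc1a6 rose by 0.32 at 4 hr and Slc1a2 by 0.70 at 12 hr. Among 23 partners of voltage-gated channels, 2, 2, 0, and 2 rose and 0, 2, 4, and 1 fell (8.7, 8.7, 0, and 8.7% rose and 0, 8.7, 17.4, and 4.35% fell), so that the share of rises was close to or below that of all probe sets at every time. Rrad and Gem, small GTPases that inhibit Ca2+ channels, rose by 3.93 and 3.87 at 2 hr, Nrcam, an adhesion protein of the axon initial segment, by 2.41 at 24 hr, and Nedd4l, a ubiquitin ligase that removes channels from the surface, fell by 1.75 at 12 hr. Caskin1, a synaptic scaffold, had the largest early fall (−0.59 at 4 hr). Among 28 related cation channels 2, 4, 5, and 3 rose and 2, 2, 2, and 3 fell (7.14, 14.3, 17.9, and 10.7% rose and 7.14, 7.14, 7.14, and 10.7% fell), with Trpv4 at 1.32 and Trpc2 at −0.81 at 4 hr the largest early changes and Trpc6 at 0.98 and Trpc2 at −1.38 at 24 hr the largest late ones.

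Among 13 genes of the RE1 silencing factor, a repressor of neuronal genes, and its corepressors, 1, 3, 1, and 0 rose and 1, 1, 1, and 2 fell (7.69, 23.1, 7.69, and 0% rose and 7.69, 7.69, 7.69, and 15.4% fell), with Kdm1a at 0.73 at 2 hr, Rcor2 at −0.90 at 4 hr, Sin3a at 0.44 at 12 hr, and Ctdsp2 at −1.45 at 24 hr. Of the 3 enzymes that edit glutamate receptor RNA, Adarb1 fell by 0.53 at 4 hr and Adar rose by 0.71 at 24 hr.

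Where a gene had several probe sets, the unused ones differed from the one shown in some cases: for Kcnk2 the dimmer probe set fell by 1.27 at 2 hr (adjusted p 0.0176), for Kcnj11 another rose by 0.66 at 12 hr and 0.63 at 24 hr, for Kcng2 another rose by 0.56 at 24 hr, and for Scn2b the 2 probe sets were called in opposite directions between the phases (−0.90 and 0.19). An unused probe set also fell for Kcnip3 and Scn2b at 4 hr and for Cacna1a at 12 hr, and rose for Cacnb1 at 2 hr and Kcnk6 at 12 hr. Of the 2 Kcne3 probe sets only the one shown was called at 4 and 12 hr. Their mean rose by 0.52 and 0.82 (adjusted p 0.0115 and 0.0015). Only the probe set shown was called for Cacna1b at 4 and 24 hr and Kcnj4 at 2 hr, of 2 each. The same held at 12 hr for Kcne2, Cacna1d, and Kcnj3, of 3 each. The members called at no time are thus those whose brightest probe set was not called.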

How the data were processed

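Gene expression was measured on 10 Affymetrix rat arrays of lens explants, 2 per time point. The authors deposited intensity values on a linear scale, normalized by the robust multichip average (RMA, version not given in the sources used here), and the array medians lay between 97.97 and 100.2. The log2 of these values was analysed as it was, and 57 array controls were set apart, leaving 31042 probe sets, of which 20826 carry 1 symbol. A linear model with a mean for every time point was fitted to all 10 arrays (lmFit and eBayes of limma 3.58.1 in R 4.3.3), with 5 residual and 3.69 prior degrees of freedom. P-values were adjusted by Benjamini-Hochberg over all probe sets, and errors are standard errors of the log2 fold change. The number of arrays limits the precision, and brightness served to choose and describe probe sets, not to compare the abundance of genes. The code of the fit was checked on simulated arrays, with independent normal noise for each probe set and shifts planted at 4 hr. That noise had no deviation shared between times and the same spread at every time, so it does not test the fit under such conditions.

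The members and the gene lists were chosen with earlier results of these data known. Genes named in the text were the 6 largest called rises and falls at each time against 0 hr whose arrays lay on 1 side of both 0 hr arrays, the 4 largest each way between phases, the brightest member of each class, and from each list the largest called rise and fall early and late. Other called members were named for completeness after their values were seen. Equal replicate numbers did not pair the cultures, except in part at 2 and 4 hr (correlation of deviations −0.147 to 0.327, over 0.1 only for 2 and 4 hr). The main fit took all arrays as independent. Its standard errors between 2 and 4 hr and between the phases thus leave out what those arrays share. Promoter regions came from RefSeq (GRCr8). Python 3.11.15 and matplotlib 3.10.9 drew the figures. Alternatives were another variance prior, the methods' analysis of variance, fits of the compared groups alone, median centring, quantile normalization, a filter on the dimmest 1 in 3 probe sets, the mean or the most variable probe set per gene, a replicate block, a minimum fold change of 1.25, the omission of each array, and, chosen after seeing the data, a fit without the 2 and 4 hr arrays.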

Additional observations from a re-analysis of the deposited data

How the results depend on the processing

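The counts of members called (13, 19, 12, and 9 at 2, 4, 12, and 24 hr against 0 hr, 3 at 4 against 2 hr, 4 at 24 against 12 hr, and 32 between the phases) stayed within 1.5 times under the trended and robust prior, quantile normalization, median centring, the filter on dim probe sets, the mean or the most variable probe set per gene, the replicate block, and the minimum fold change. With the replicate block 13, 18, 11, and 8 members were called at 2, 4, 12, and 24 hr, 2 at 4 against 2 hr, 3 at 24 against 12 hr, and 32 between the phases, and of the named fold changes Cacna1b at 24 hr and Kcne2 at 4 and 12 hr lost the call. A fit of the compared groups alone called 6 at 2 hr, 20 at 12 hr, 7 at 24 against 12 hr, and 1 at 4 against 2 hr, and the fit without the 2 and 4 hr arrays 17 at 24 hr and 7 at 24 against 12 hr. Without adjustment, the methods' analysis of variance called 26 at 24 hr, 15 at 24 against 12 hr, and 8 at 4 against 2 hr. After Benjamini-Hochberg adjustment it called 0 in all 6 comparisons of single times (the unadjusted test called 8 to 26 members in them) and 19 between the phases. With 1 array left out in turn the counts ranged from 4 to 14 at 2 hr, 9 to 20 at 4 hr, 6 to 14 at 12 hr, 6 to 12 at 24 hr, 2 to 4 at 4 against 2 hr, 0 to 5 at 24 against 12 hr, and 22 to 38 between the phases. The first and the second 0 hr array brought the 2 hr count to 5 and 4 and the 4 hr count to 9 each, the first 4 hr array brought the 4 hr count to 12, the second 0 hr array and the first 12 hr array brought the 12 hr count to 7 and 6, and each 12 and 24 hr array brought the count at 24 against 12 hr to 0 or, for the second 24 hr array, to 1.

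Of 47 called fold changes of the named members, none changed sign under any of these alternatives, and 20 stayed called in all 10 omissions, namely those of Kcnd3, Kcnk5, Kcnab1, Kcnmb4, Kcnh1, and Kcnj12, of Kcns3 at 2 and 4 hr, of Kcne4 at 4, 12, and 24 hr, of Kcne3 at 12 hr, of Kcna1 at 4 hr, of Cacna1c at 2 hr, and of Grik5 at 24 hr. The other 27 lost the call in 1 or more, 21 without the first and 22 without the second 0 hr array. The called changes of Kcnd1, Kcnj3, Kcnj4, Kcnj13, Cacna1d, and Cacng8 were each lost in 1 to 8 omissions and kept their sign. An array left alone in its group was assumed to vary like the others. Low intensity limits what can be seen for the 102 members below the median, where a missed call does not show that a gene is not expressed or did not change.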
